A study of Zea mays with 47 samples.

Results

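A set of 5 maize genes whose enzymes act on hydrogen peroxide, oxidised ascorbate or protein thiols was described across inbred lines and heat levels. They were the catalase genes cat1 (GRMZM2G088212), cat2 (GRMZM2G090568) and cat3 (GRMZM2G079348), the dehydroascorbate reductase gene dhar4 (GRMZM5G826194) and a glutaredoxin gene (GRMZM2G023237). The genes were chosen by their identifiers, and all 5 were among the 17905 genes of the count table. RNA of the latest fully developed seedling leaf was sequenced in 8 European maize inbred lines grown at 25°C (the control), 32°C (moderate heat) or 38°C (strong heat) during the day. For the heat treatments the temperature was raised after the first days of growth. Leaves were taken at the end of the growing period, so that the heat was prolonged and not a short shock. Nights were cooler than days, and the night temperature also rose with the heat level. Lines L012, L017, L023 and L043 belong to the Flint pool, and P040, S058, S067 and S070 are Dent lines. The study's methods class S058, S067, L043 and L012 as heat tolerant and L023, L017, S070 and P040 as heat susceptible, from an earlier test of seedlings. In the study's own growth test at these heat levels, only S070 and P040 had a high heat susceptibility index. The remaining lines, L023 and L017 among them, were considered more heat tolerant than these. The classes of the methods are used below. Each library pooled leaf pieces of 5 plants, and each line and heat level had 2 libraries, except L017 at 32°C with 1, which gave 16, 15 and 16 libraries at 25, 32 and 38°C. Replicates were separate pools of plants, with 1 growth chamber run per heat level, and the chamber run of a heat level and the heat level cannot be told apart.

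Catalases split hydrogen peroxide into water and oxygen. In maize, CAT1 is best known from the scutellum of the germinating seed and as an enzyme induced by abscisic acid, CAT2 from peroxisomes of bundle sheath cells, where it removes the peroxide that glycolate oxidase releases in photorespiration, and CAT3 from mesophyll cells, where it is bound to mitochondria, and the cat3 transcript is known to follow the circadian clock. Dehydroascorbate reductase uses glutathione to turn oxidised ascorbate back into ascorbate, the substrate of ascorbate peroxidase. Glutaredoxins use glutathione to reduce disulfides and to take glutathione off proteins. Heat raises the production of reactive oxygen species in leaves, and these enzymes belong to the systems that remove them.

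Total counts ranged from 3687700 to 20642205 per library, with a median of 12346491. The 11 genes that each held above 1% of all counts took a median of 83.2% of the counts of a library at 25°C, 72.7% at 32°C and 57.9% at 38°C, so that levels are given as TMM-scaled CPM (counts relative to the library total), which sets libraries to a common level over most genes. With library totals alone, the log2 heat slope of the median gene was 1.86 in place of 0.08, and directions below are relative to most genes. Of the 31 libraries at 25 and 32°C, 27 deviated from the mean of their heat level most like their own line did at 38°C and 4 did not. The library labelled S070 at 32°C, replicate 1, was closer to P040 (r = 0.610) than to S070 (r = -0.041), and the one labelled P040 at 32°C, replicate 1, was closer to S070 (r = 0.482) than to P040 (r = -0.0914). Those labelled P040 at 25°C, replicate 1, and P040 at 32°C, replicate 2, were slightly closer to L017 (r = 0.273 and 0.211) than to P040 (r = 0.246 and 0.191). All 9 markers of mesophyll and bundle sheath cells were detected in every library. The summed level of the 4 mesophyll markers ranged from 3149 to 5958 CPM at 25°C, from 1356 to 5149 CPM at 32°C and from 1599 to 4631 CPM at 38°C, and that of the 5 bundle sheath markers from 789 to 2466, from 235 to 1968 and from 360 to 1168 CPM. In such bulk samples, fewer cells of a type and less RNA per cell cannot be told apart.

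The catalase gene with most counts, cat3, rose at moderate heat and fell at strong heat. Its level had a lowest value, median and highest value of 55.9, 133 and 266 CPM at 25°C, of 139.9, 256.2 and 892 CPM at 32°C, and of 5.08, 50.7 and 233 CPM at 38°C. Of the libraries at 32°C, 7 of 15 lay above every library at 25°C, and 14 of 16 libraries at 38°C lay below every library at 32°C. Between 32 and 38°C the mean level fell in 8 of 8 lines, to between 0.137 (P040) and 0.249 (S067) of its value at 32°C. Averaged over the lines, the difference was a fall by 2.44 on the log2 scale (SE 0.261, adjusted p = 2.03e-08, edgeR's quasi-likelihood test with Benjamini-Hochberg adjustment over all genes, as for each adjusted p below unless another test is named). The step from 25 to 32°C was 1.14 on the log2 scale (SE 0.252, adjusted p = 0.000592), with a higher mean in 6 of 8 lines and ratios from 0.833 in L012 to 4.44 in P040. Both P040 ratios rest on libraries at 32°C that were closer to another line, with 892 CPM in replicate 1 and 372 CPM in replicate 2. Which line would be the extreme under other labels was not tested. At 38°C the level was also below that at 25°C, by a log2 difference of -1.31 (SE 0.249, adjusted p = 5.37e-05), and lower in 8 of 8 lines, although L023 and S067 kept 0.982 and 0.931 of their control level. With library totals in place of TMM this last difference turned to 0.47 (adjusted p = 0.0515), while the median gene was at 1.85, so that cat3 remained 1.38 below it (1.39 below with TMM). The fall between 32 and 38°C kept its direction with library totals, at -1.37 (adjusted p = 3.11e-06).

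The departure of cat3 at 32°C from a straight line between 25 and 38°C was 1.84 on the log2 scale (SE 0.209, adjusted p = 8.65e-08). Of all genes, 25.0% departed from the line at an adjusted p under 0.05 (13.5% above and 11.5% below it), and 4.56% rose in the first step and fell in the second. The overall heat slope, the test of the study that treats heat as linear from 25 to 38°C over all lines, did not call cat3 (log2 slope -0.97, SE 0.618, adjusted p = 0.205). Without 3 of the libraries closer to another line (all but P040 at 32°C, replicate 2, and called the 3 libraries below) the steps were 1.06 (adjusted p = 0.00234) and -2.40 (adjusted p = 5.74e-08), and without all 4 they were 1.05 and -2.44.

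**Figure D1:**
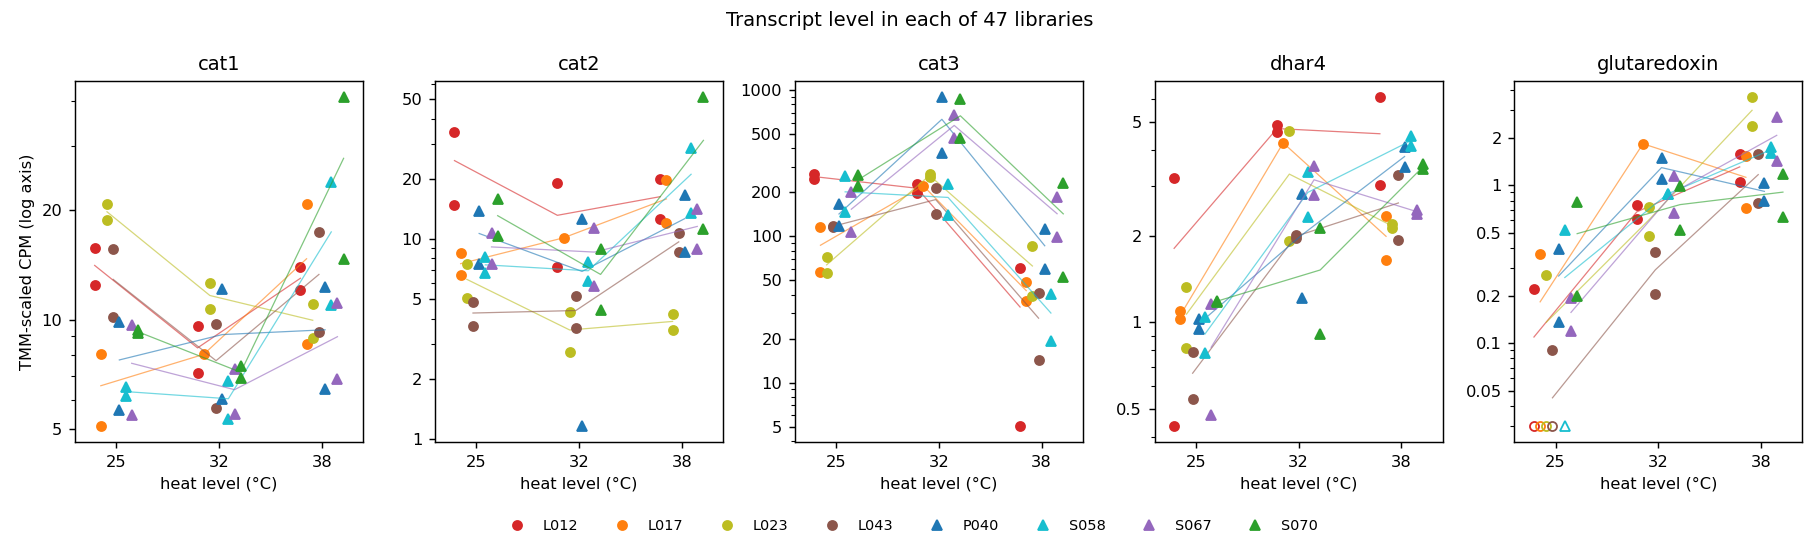
Level of each gene in each of 47 libraries (y axis, TMM-scaled CPM on a log axis of its own range per panel) by heat level (x axis), with circles for Flint lines, triangles for Dent lines and thin lines joining the mean of each line. Open symbols at the bottom of the glutaredoxin panel are the 5 libraries with 0 counts. The cat3 points rise to 892 CPM at 32°C and drop to as low as 5.08 CPM at 38°C, while dhar4 and the glutaredoxin have their lowest values at 25°C.

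The 3 clock genes found by symbol and a photorespiration gene also rose and then fell, beside 4.56% of all genes. The search by symbol gave no CCA1, LHY or TOC1 gene, so that these clock genes were not looked at. The clock genes PRR59, gigz1b and GI were all 3 higher at 32°C than at 25°C (log2 differences 0.76, 0.77 and 0.45, adjusted p = 0.000209, 1.76e-05 and 0.00321) and lower at 38°C than at 32°C (-0.72, -0.83 and -0.93, adjusted p = 0.000278, 8.74e-06 and 5.72e-07). PRR59 encodes a pseudo-response regulator, and the other 2 are GIGANTEA genes. The hour of sampling was not given in the sources used here, and the part of the clock in the cat3 level was not tested. The glycolate oxidase gene go1, whose enzyme forms peroxide in photorespiration, rose by 0.46 (adjusted p = 0.0103) and then fell by 0.78 on the log2 scale (adjusted p = 7.49e-05). The 4 mesophyll markers are of the cells in which CAT3 is known to be found. At 32°C, 0 of them were called higher than at 25°C and 1 lower, beside 20.1% and 17.9% of all genes. The 1 called was PPDK (-0.77, adjusted p = 1.00e-05), while PEPC, the other large part of the sum, was not called (0.09). Between 32 and 38°C, 0 of the 4 markers were called higher and 1 lower, beside 18.6% and 16.4% of all genes. That 1 was PEPC (-0.46, adjusted p = 0.0383). The median summed level of the 4 markers was 4238 CPM at 25°C, 3260 CPM at 32°C and 2813 CPM at 38°C. The part of the mesophyll markers in the cat3 level was not tested.

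The other catalase genes had their lowest median levels at 32°C and rose from there to 38°C. For cat1 the lowest, median and highest levels were 5.11, 9.51 and 20.9 CPM at 25°C, 5.32, 7.32 and 12.6 CPM at 32°C, and 6.43, 11.6 and 40.9 CPM at 38°C. The ranges of the heat levels overlapped, and 6 of 16 libraries at 38°C lay above every library at 32°C. Between 32 and 38°C cat1 rose by 0.77 on the log2 scale (SE 0.173, adjusted p = 0.000863), with a higher mean in 7 of 8 lines and a ratio of 0.855 in the exception, L023. The step from 25 to 32°C was -0.31 (SE 0.177, adjusted p = 0.178), or 0.41 (adjusted p = 0.0243) with library totals, on which the median gene was at 0.73. Of all genes, 4.78% were called lower in the first step and higher in the second, and neither cat1 nor cat2 was among them. For cat1, 32°C lay 0.56 below the straight line (SE 0.156, adjusted p = 0.00795). Over the whole range, 38°C minus 25°C, the difference was 0.46 (SE 0.166, adjusted p = 0.0188), but 1 library could end this call. Without the 38°C library of L017 (replicate 2), S058 (replicate 2) or S070 (replicate 1) the adjusted p was 0.0571, 0.053 or 0.0633. The library of S070 at 38°C, replicate 1, had the highest cat1 level of all, 40.9 CPM, against 14.7 CPM in the other library of that group.

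For cat2 the lowest, median and highest levels were 3.69, 7.81 and 34.5 CPM at 25°C, 1.16, 6.20 and 19.1 CPM at 32°C, and 3.51, 12.3 and 51.1 CPM at 38°C. The ranges overlapped, and the highest value came from S070 at 38°C, replicate 1, against 11.2 CPM in replicate 2. Between 32 and 38°C cat2 rose by 0.94 on the log2 scale (SE 0.249, adjusted p = 0.00406), and the mean was higher in 8 of 8 lines, with ratios from 1.10 in L023 to 4.69 in S070. The S070 mean at 32°C includes replicate 1, the library closer to P040. The step from 25 to 32°C was -0.39 (SE 0.255, adjusted p = 0.246), or 0.30 with library totals. Without the 3 libraries closer to another line it was -0.71 (adjusted p = 0.0152) and without all 4 it was -0.43 (adjusted p = 0.15). The library of P040 at 32°C, replicate 2, held the lowest cat2 level, 1.16 CPM, against 12.6 CPM in the one labelled replicate 1. At 32°C cat2 lay 0.68 below the straight line (SE 0.225, adjusted p = 0.0245), a call that was lost without L012 at 32°C, replicate 2 (adjusted p = 0.0514), or S067 at 32°C, replicate 2 (adjusted p = 0.052). The difference between 38 and 25°C was 0.55 (SE 0.238, adjusted p = 0.0516) and passed the threshold in 14 of the 47 fits that left out 1 library. The bundle sheath markers, of the cells in which CAT2 is known to be found, had median summed levels of 1273, 1069 and 884 CPM at 25, 32 and 38°C, but did not move together. In the overall slope NADP-ME (-0.56, adjusted p = 0.0109) and PEPCK (-1.29, adjusted p = 4.54e-07), which held most of the sum, fell, Rubisco activase rose (1.09, adjusted p = 0.00792), and both Rubisco small subunit genes were not called. Between 32 and 38°C Rubisco activase was called higher (1.16, adjusted p = 0.0022), as cat2 was. In the same step PEPCK (-0.83, adjusted p = 0.00195) and Rubisco small subunit a (-0.97, adjusted p = 0.0135) were called lower. Rubisco small subunit b was called higher between 25 and 32°C (1.01, adjusted p = 0.029). The part of the bundle sheath markers in the cat2 level was not tested.

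Replicates with the same number often differed in the same direction. At 25°C, replicate 1 had the higher level in 7 of 8 lines for cat1 and in 8 of 8 for cat2, while replicate 2 had the higher level in 7 of 8 lines for cat3, and at 38°C replicate 2 was higher for cat3 in 7 of 8 lines. The gap was widest for cat3 in L012 at 38°C, with 5.08 CPM in replicate 1 and 60.7 CPM in replicate 2, a ratio of 11.9.

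**Figure D2:**
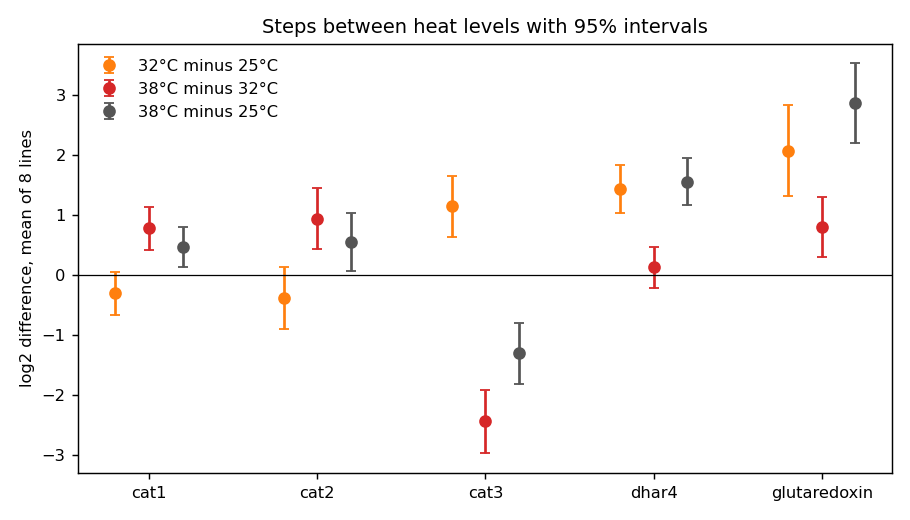
Log2 difference between heat levels (y axis), averaged over 8 lines, with 95% intervals from the fit with 24 group means, for 32°C minus 25°C (orange), 38°C minus 32°C (red) and 38°C minus 25°C (grey). For cat3 the first step is 1.14 and the second -2.44, whereas for cat1 and cat2 the second step is above 0 (0.77 and 0.94), and for dhar4 the first step is 1.43 and the second 0.12.

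Shares of the summed catalase counts set these changes side by side within a library, where the scaling cancels. They are shares of counts and were not divided by gene length, so that they describe shifts with heat and not the number of molecules. The mean share of cat3 over the 8 lines was 86.4% ± 6.86 (SD, n = 8 lines) at 25°C, 94.6% ± 2.66 at 32°C and 63.2% ± 17.1 at 38°C. Between 32 and 38°C it decreased by 31.4 percentage points on average (SD 15.1) and in 8 of 8 lines (p = 0.0078125, exact two-sided sign-flip permutation test over 8 lines, the smallest p it can give). Between 25 and 38°C the mean change was -23.2 points (SD 20.8, exact p = 0.03125), in 7 of 8 lines. The exception was L023, in which the share was 9.44 points higher at 38°C. The first step was 8.27 points (SD 6.97, exact p = 0.015625), with a higher share in 7 of 8 lines. These exact p were not adjusted for the number of genes and steps tested, and the test had been planned for the change between 25 and 38°C.

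Both other genes held a larger share at 38°C than at 32°C in 8 of 8 lines. The 3 shares are bound to each other, so that a smaller share of cat3 is a larger share of the others together. In L023 the share of cat1 rose although its level fell from 11.7 to 9.96 CPM. The share of cat1 changed from 7.58% ± 6.22 to 2.81% ± 1.37 and 17.8% ± 7.84, and that of cat2 from 6.06% ± 1.93 to 2.57% ± 1.70 and 19.0% ± 9.98 (SD, n = 8 lines each). No library at 25 or 32°C had less than a 50% share of cat3, and the lowest was 68.0%, but 6 of 16 libraries at 38°C did. Among these, cat3 held 13.01% of the catalase counts in L012, replicate 1, and 44.2% and 43.5% in the libraries of S058. At the other end S067 kept 79.6% and 92.2% of its catalase counts in cat3 at 38°C. The summed level of the 3 genes had a median of 152 CPM at 25°C, 272 CPM at 32°C and 81.2 CPM at 38°C, so that the rises of cat1 and cat2 were smaller in CPM than the fall of cat3.

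**Figure D3:**
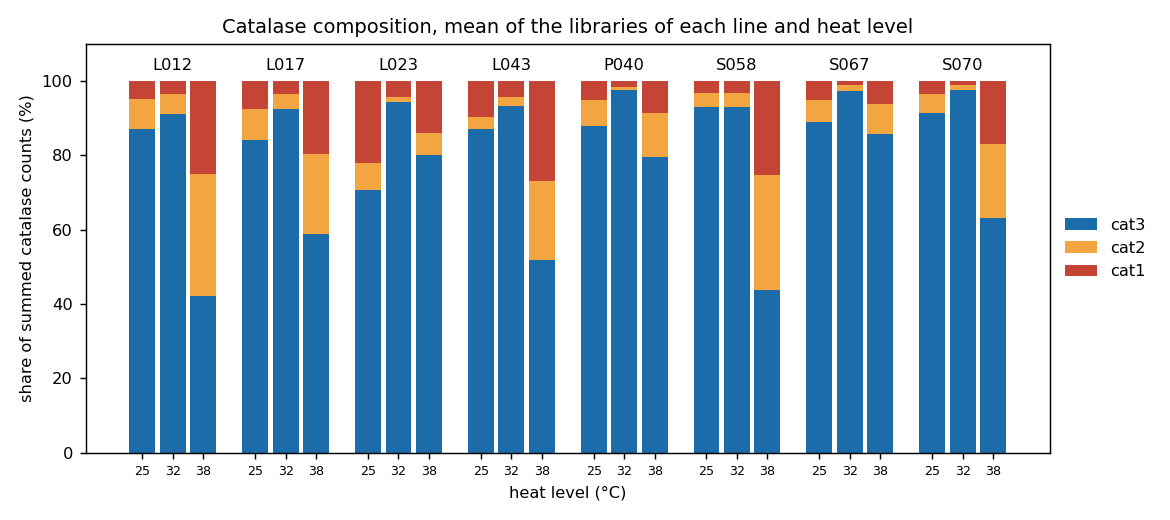
Share of cat3 (blue), cat2 (orange) and cat1 (red) in the summed counts of the 3 catalase genes (y axis, %), as the mean of the libraries of each line and heat level (x axis). In each of the 8 lines the blue part is smaller at 38°C than at 32°C, with means over lines of 63.2% and 94.6%.

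The dehydroascorbate reductase gene dhar4 rose between 25 and 32°C, with no further change called at 38°C. Its lowest, median and highest levels were 0.437, 1.03 and 3.19 CPM at 25°C, 0.914, 2.78 and 4.87 CPM at 32°C, and 1.65, 3.14 and 6.08 CPM at 38°C. These rest on 2 to 17 counts per library at 25°C, 12 to 56 at 32°C and 22 to 152 at 38°C. The gene passed the filter of the table (at least 2 CPM, without TMM, in at least 2 libraries) in 26 libraries, 0 of them at 25°C. That filter favours a rise, so that the steps and slope below are a description and no independent evidence. The replicates of L012 gave both extremes of the control level, with 3.19 CPM in replicate 1 and 0.437 CPM in replicate 2. The step from 25 to 32°C was 1.43 on the log2 scale (SE 0.2, a 2.69-fold difference, adjusted p = 1.24e-06) and was upward in 8 of 8 lines, with ratios from 1.28 in S070 to 3.99 in L017. The S070 mean at 32°C includes replicate 1, the library closer to P040, and the value of L017 at 32°C is from 1 library. The next step was 0.12 (SE 0.168, 95% interval -0.22 to 0.47, adjusted p = 0.618), and 4 lines had a higher and 4 a lower mean at 38°C than at 32°C. With library totals it was 1.20 and called, on a scale on which the median gene was at 1.11. The level at 32°C lay 0.59 above the straight line (SE 0.157, adjusted p = 0.00484), and without the 3 libraries closer to another line 0.42 above it (adjusted p = 0.0555). The overall slope was 1.56 (SE 0.253, adjusted p = 1.97e-06), between 1.48 and 1.70 when any 1 library was left out and between 1.46 and 1.64 when any 1 line was left out.

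The glutaredoxin gene had the steepest slope of the 5 genes and the fewest counts. At 25°C its counts per library ranged from 0 to 6, with 0 counts in 5 of 16 libraries, at 32°C from 3 to 27 and at 38°C from 12 to 42. The lowest, median and highest levels were 0, 0.164 and 0.788 CPM at 25°C, 0.204, 0.748 and 1.83 CPM at 32°C, and 0.626, 1.47 and 3.597 CPM at 38°C. In the 5 libraries with no count, 3 counts, the limit that a count of 0 allows, would be 0.264 to 0.663 CPM, which covers counting error only. Above every control library lay 7 of 15 libraries at 32°C and 13 of 16 at 38°C, and the line means were higher at 32 and at 38°C than at 25°C in 8 of 8 lines. The first step was 2.06 on the log2 scale (SE 0.372, adjusted p = 3.29e-05) and the second 0.79 (SE 0.244, adjusted p = 0.0107), with a higher mean at 38°C than at 32°C in 6 of 8 lines and a lower one in L017 and P040, and 3.32% of all genes were called higher in both steps. No departure from the straight line was called (0.53, SE 0.268, adjusted p = 0.135), but without S058 at 25°C, replicate 2, which had 6 counts, the departure was 0.81 (adjusted p = 0.0337). The overall slope was 2.64 (SE 0.361, adjusted p = 5.19e-08). The study had selected this gene as heat responsive on these same libraries, so that its slope is a description and no independent evidence.

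The table holds only genes with at least 2 CPM, without TMM, in at least 2 libraries. The 3 catalase genes passed that limit in all 47 libraries, but dhar4 passed it in 26 libraries, none of them at 25°C, and the glutaredoxin in 12 libraries, 1 at 32°C and 11 at 38°C. These genes entered the table through the libraries in which they were high, and the filter favours a rise of both. In the overall slope, dhar4 and the glutaredoxin were called and the 3 catalase genes were not, beside 44.0% of all genes called (24.3% higher and 19.7% lower). Above the added limit of the study, a log2 slope of 2, lay the glutaredoxin alone of the 5, beside 2.52% of all genes, and 0.838% lay below -2. The study had selected the glutaredoxin with this same limit on these libraries, so that its place above the limit follows from that choice and is no evidence. Beside the steps, 38.0% of all genes were called between 25 and 32°C (20.1% higher, 17.9% lower), 35.1% between 32 and 38°C (18.6% higher, 16.4% lower) and 54.9% between 25 and 38°C (30.3% higher, 24.6% lower).

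The order of the lines differed between the genes and between heat levels. At 25°C, cat1 was highest in L023 (19.8 CPM), followed by L012 and L043, and lowest in S058 (6.34 CPM). The ranges of the replicates separated L023 from L012 and L043 from S070, while the other 5 pairs of neighbours in that order overlapped. The lines differed in cat1 at 25°C (adjusted p = 0.043, beside 27.5% of all genes), but in 16 of 47 fits without 1 library this call was lost, with the highest adjusted p, 0.155, without L023, replicate 2. At 38°C S070 was first (27.8 CPM), S058 second (17.4 CPM) and S067 last (8.98 CPM), at an adjusted p of 0.0373 beside 38.8% of all genes. The replicate ranges were apart in only 1 of the 7 pairs of neighbours, L012 and L023, so that the first places are not separated. Without S070 at 38°C, replicate 1, the adjusted p was 0.403, and without L023, replicate 1, P040, replicate 1, or S067, replicate 2, of the same heat level it was 0.0599, 0.0667 or 0.0721.

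L012 had the highest cat2 level at 25 and at 32°C (24.7 and 13.1 CPM) and S070 at 38°C (31.2 CPM), where L023 was lowest (3.87 CPM) with a range apart from its neighbour L043. The lines differed in cat2 at 38°C (adjusted p = 0.0323), but no longer without L023, replicate 1 (0.1), L023, replicate 2 (0.129), or S070, replicate 1 (0.101). At 25°C the adjusted p was 0.0848, and 0.0137 without the 3 libraries closer to another line. At 32°C it was 0.379, and 0.0134 without these 3 libraries.

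For cat3 the lines differed at 38°C (adjusted p = 0.0125), and this call was kept whichever library was left out. S067 and S070 were highest (143 CPM each) and L043 and S058 lowest (27.6 and 29.9 CPM), although the replicate ranges of all 7 pairs of neighbours overlapped. At 32°C, S070, P040 and S067 had 668, 632 and 574 CPM and the other 5 lines 179 to 261 CPM, and the replicates of S067 lay above those of L023, the next line (adjusted p = 0.0637 over the 8 lines, beside 29.3% of all genes). The libraries labelled S070 and P040 at 32°C include those closest to the other of these lines, and both lines were high. At 25°C the adjusted p was 0.206. L012 had the highest dhar4 level at each heat level (1.81, 4.74 and 4.55 CPM), but the lines were not called different (adjusted p = 0.636, 0.0733 and 0.124). The adjusted p at 32°C was 0.0111 without the 3 libraries and 0.0327 without the 4. For the glutaredoxin it was 0.515, 0.234 and 0.116, with L023 highest at 38°C (2.98 CPM) and S070 lowest (0.904 CPM).

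Whether the heat slope differed between lines was called for none of the 5 genes, in a test that called 31 genes in all (0.173%; 1477 genes had an unadjusted p under 0.05). The adjusted p was 0.45 for cat1, 0.863 for cat2, 1 for cat3 and dhar4 and 0.731 for the glutaredoxin. This test compares straight lines, whereas cat3 at 32°C lay 1.84 above the line on the log2 scale. It therefore cannot tell whether the rise and fall of cat3 differed between lines, and differences of single steps between lines were not tested. The slopes of single lines spread from -1.01 (L023) to 1.58 (S070) for cat1, from -0.69 (L023) to 1.53 (S058) for cat2, from -2.85 (L012) to 0.19 (L023) for cat3, from 0.77 (L017) to 2.09 (S058) for dhar4 and from 0.89 (S070) to 4.42 (L043) for the glutaredoxin. In dhar4 and in the glutaredoxin all 8 slopes were above 0. L023 stood at the low end of both cat1 and cat2, with line means of 19.8 CPM at 25°C and 9.96 CPM at 38°C for cat1 and of 6.28 and 3.87 CPM for cat2.

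Fitted alone, S058 was the only line in which all 5 genes passed the threshold, and also the line with most genes called, 13.7% of all. Its slopes were 1.49 for cat1 (SE 0.426, adjusted p = 0.0405), 1.53 for cat2 (SE 0.43, adjusted p = 0.0383), -2.63 for cat3 (SE 0.784, adjusted p = 0.048), 2.09 for dhar4 (SE 0.375, adjusted p = 0.00589) and 2.35 for the glutaredoxin (SE 0.667, adjusted p = 0.0382). The calls other than that of dhar4 were each lost in 4 of the 6 fits without 1 library of the line, and in the fit of all lines together. S067 called the glutaredoxin (3.32, SE 0.674, adjusted p = 0.0318, beside 2.62% of all genes), and lost it without either library at 25°C or without replicate 2 at 38°C. No gene of the 5 was called in L012, L017, L023, L043, S070 or P040, in which 2.97%, 0.162%, 0.145%, 0.313%, 2.90% and 0% of all genes were called (in P040, 2668 genes had an unadjusted p under 0.05).

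**Figure D4:**
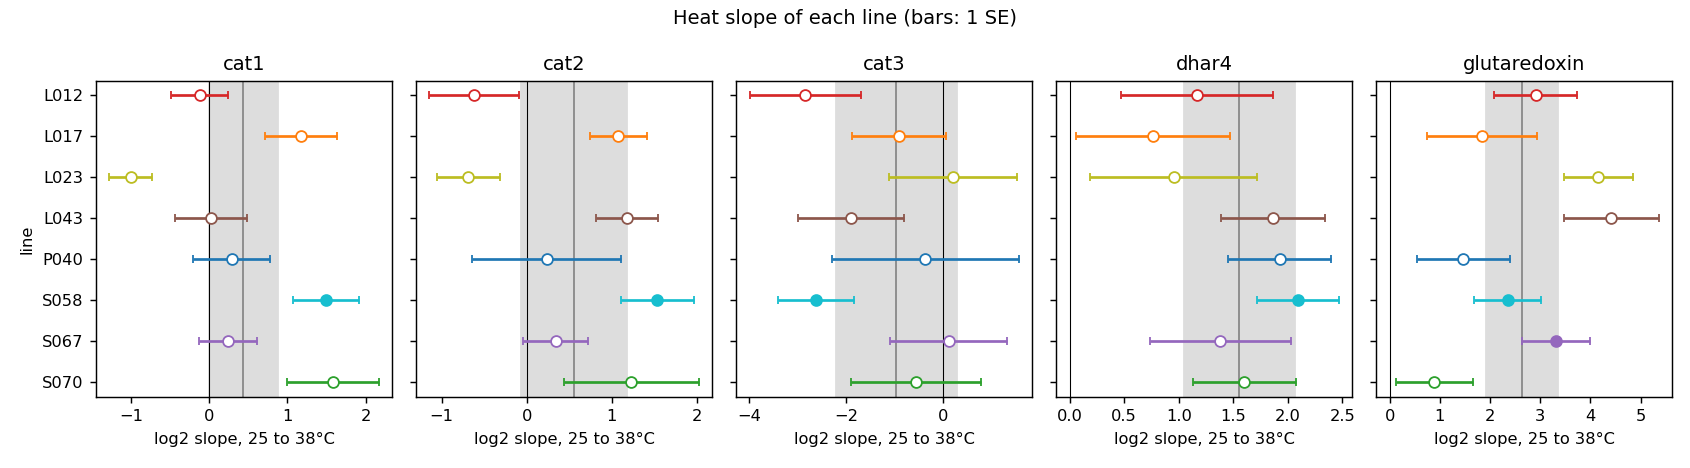
Log2 heat slope from 25 to 38°C (x axis) of each line (y axis), fitted alone, with bars of 1 SE; filled symbols have an adjusted p under 0.05. The grey line and band are the overall slope and its 95% interval, 1.56 for dhar4 and 2.64 for the glutaredoxin, and the filled symbols are S058 in all 5 panels and S067 in the last.

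Neither the Flint and Dent lines nor the tolerant and susceptible lines were called different in any of the 5 genes, with the line as the replicate (4 against 4 lines). In the comparison of Flint minus Dent lines the log2 differences ranged from -1.15 (glutaredoxin) to 0.84 (cat1) at 25°C and from -1.19 (cat3) to 0.25 (glutaredoxin) at 38°C. The lowest unadjusted p were 0.0229 for cat1 at 25°C and 0.0222 for cat3 at 38°C, with 95% intervals of 0.14 to 1.53 (adjusted p = 0.332) and -2.17 to -0.22 (adjusted p = 0.236). All genes gave 0.0391% of calls at 25°C, 0.570% at 38°C and 0% for the slope (946 genes had an unadjusted p under 0.05). For tolerant minus susceptible lines the differences lay between -0.84 (glutaredoxin) and 0.45 (cat3) at 25°C and between -0.54 (cat3) and 0.29 (dhar4) at 38°C, with adjusted p from 0.882 to 1. All genes gave 0%, 0.00559% and 0% of calls for the levels and the slope, with 1213 and 427 genes at an unadjusted p under 0.05 where no gene was called. The 95% intervals of the difference in slope between tolerant and susceptible lines were -1.39 to 1.03 for cat1, -1.26 to 1.31 for cat2, -4.71 to 1.69 for cat3, -1.01 to 1.498 for dhar4 and -0.56 to 2.76 for the glutaredoxin, and each holds differences in either direction.

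Other genes of the antioxidant systems, taken by their symbols, moved in both directions. Of 20 such genes, 2 rose, 8 fell and 10 were not called in the overall slope, beside 24.3% of all genes called higher and 19.7% called lower, with a median log2 slope of -0.38 beside 0.08 over all genes. With library totals, on which the median gene was at 1.86, 19 were called higher and 0 lower and their median was 1.39, so that the list was below the median gene on both scales. Of 5 superoxide dismutase genes, which make hydrogen peroxide from superoxide, Sod4A (-1.09, adjusted p = 2.04e-06), sod2 (-0.76, adjusted p = 1.97e-05) and sod3 (-0.52, adjusted p = 0.00667) fell. The ascorbate peroxidase gene apx also fell (-0.76, adjusted p = 4.54e-05). Of 6 genes of ascorbate and glutathione metabolism, the glutathione reductase gene gor1 (0.82, adjusted p = 7.08e-08) and the dehydroascorbate reductase gene dhar1 (0.25, adjusted p = 0.0411) rose, dhar3 fell (-0.41, adjusted p = 0.0198), and the glutathione synthesis genes gsh1 and gsh2 and the ascorbate synthesis gene VTC2 were not called (-0.36, -0.44 and 0.22).

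The 3 dehydroascorbate reductase genes thus had overall log2 slopes of 1.56 for dhar4, 0.25 for dhar1 and -0.41 for dhar3. The named glutaredoxin grx1 was not called (-0.13, adjusted p = 0.574). Of 5 thioredoxin or thioredoxin reductase genes, trm1, of an m-type thioredoxin (-1.01, adjusted p = 4.18e-06), and trxh1, of an h-type thioredoxin (-0.76, adjusted p = 0.000404), fell. Of 2 other peroxidase genes PER42 fell (-1.64, adjusted p = 0.000184) and Px11 was not called (1.23, adjusted p = 0.287). The study's own list of redox genes among its heat responsive genes held 6 more genes, of which 4 rose, 1 fell (GRMZM2G168898, -2.41) and 1 was not called, and since it was chosen on these libraries it is no independent evidence. The rows of GRMZM2G457898 and GRMZM2G469994 in that list hold the same values and may share reads.

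**Figure D5:**
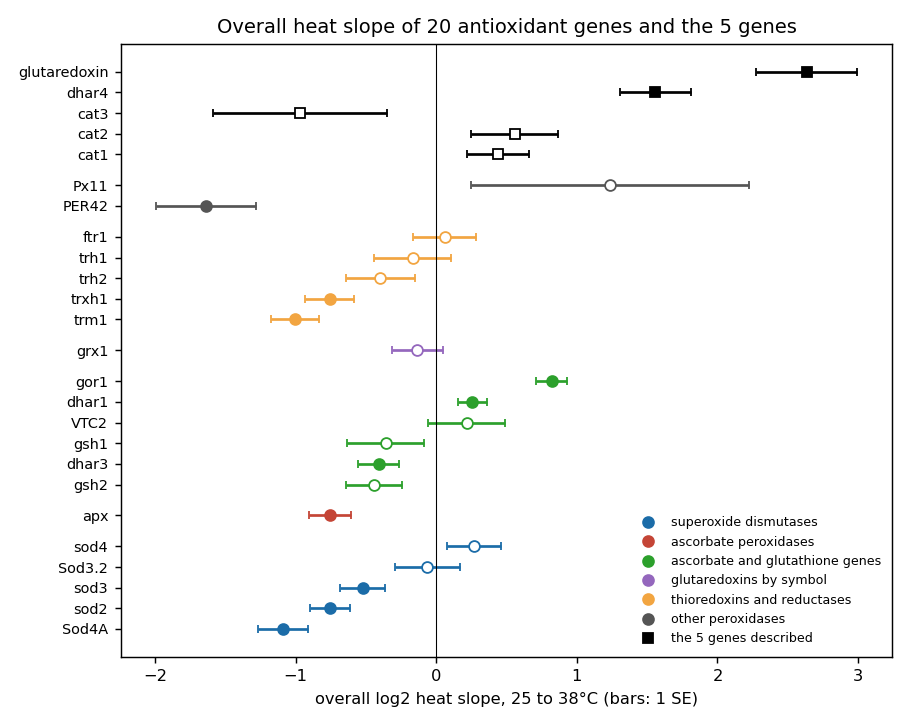
Overall log2 heat slope (x axis, bars of 1 SE) of 20 antioxidant genes taken by symbol (coloured by list) and of the 5 genes described (black squares); filled symbols have an adjusted p under 0.05. Of the 20, gor1 (0.82) and dhar1 (0.25) are the filled symbols above 0, and dhar4 (1.56) and the glutaredoxin (2.64) lie above all 20 genes. The filter of the table favours a rise of these 2 genes, and the study had selected the glutaredoxin for its slope, so that their place is a description only.

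The patterns were also compared with those of other genes, by the Pearson correlation of mean log2 CPM over the 24 combinations of line and heat level among 9886 genes, which share libraries and scaling. Genes picked in this way tend to share the heat steps of their match through the choice itself, so that shared steps are no independent evidence. The closest genes to dhar4 were GRMZM2G050845 (r = 0.961), GRMZM2G047513 (r = 0.912) and GRMZM2G177070 (r = 0.892), and like dhar4 all 3 rose between 25 and 32°C (log2 differences 1.02, 0.90 and 1.28) and were not called between 32 and 38°C (0.11, 0.19 and -0.29). Closest to the glutaredoxin were GRMZM2G158153 (r = 0.911), GRMZM2G051374 (r = 0.8697) and GRMZM2G111014 (r = 0.867), with overall slopes of 0.74, 1.58 and 2.37. Closest to cat3 were GRMZM2G156734 (r = 0.861), GRMZM2G165567 (r = 0.818) and GRMZM2G098208 (r = 0.816), which fell between 32 and 38°C by 1.09, 1.05 and 0.57 on the log2 scale. Between 25 and 32°C GRMZM2G156734 and GRMZM2G165567 were called higher (0.42 and 0.34), and GRMZM2G098208 was not called (0.07, adjusted p = 0.600). The other catalase genes had looser matches, with r of at most 0.790 for cat1 (GRMZM2G048067) and 0.780 for cat2 (GRMZM2G142873). Among the 5 genes themselves, the means of dhar4 and the glutaredoxin were the most alike (r = 0.764), while cat1 and cat3 had an r of -0.506 and cat1 and cat2 of 0.397. Within the heat levels dhar4 and the glutaredoxin were not alike, with an r of -0.0963, 0.200 and -0.172 over the libraries at 25, 32 and 38°C. Their likeness over the means thus lies between heat levels, where the filter of the table favours a rise of both. For cat2 and dhar4 the r within these levels was 0.589, 0.606 and 0.418. Over the 16 libraries at 38°C, cat1 and cat2 had an r of 0.749, and at 25 and 32°C of 0.122 and 0.190. No other gene had counts within 5% (or 1 count) of one of these genes in more than 40.4% of libraries.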

How the data were processed

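The authors sequenced rRNA-depleted leaf RNA as single-end reads, aligned them with TopHat2 2.0.3 to the B73 RefGen_v3 genome, counted reads per gene model with easyRNASeq and deposited counts of genes with at least 2 CPM in at least 2 libraries. The use of strand and of reads with several matches is not given in the sources used here. All 47 columns were mapped to samples by their names. The 5 genes and all lists were chosen with earlier results of these data known. The name of cat3 comes from that choice, and those of the other 4 were matched in a RefSeq gene table. Counts were tested with edgeR 4.0.16 (R 4.3.3, limma 3.58.1) by the quasi-likelihood test with TMM scaling, a trended dispersion and a prior count of 0.125, adjusted over 17905 genes. The fits were an overall slope on heat (0 at 25°C, rising with temperature to 1 at 38°C, as in the study), each line alone, 8 intercepts with 8 slopes, 24 group means, and sums per line for the Flint, Dent, tolerant and susceptible lines. Fits that left out 1 library reused the dispersion of all libraries. Catalase shares were tested by exact permutation with SciPy 1.17.1. Genes named were the 5, up to 3 called genes per list, other list members chosen by role after their values were seen, and the 3 genes most alike each of the 5 (mean log2 CPM of at least 1). Alternatives were DESeq2 1.42.0 and its size factors, library totals, a count filter, a replicate block, libraries or lines left out, and thinning, and the removal of 4 libraries was chosen after seeing the data. Gene lengths and sequences were not used here. The tests were checked on simulated data.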

Additional observations from a re-analysis of the deposited data

How the results depend on the processing

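The calls of the steps of cat3 and dhar4 and of the overall slopes of dhar4 and the glutaredoxin held whichever library was left out. The filter of the table favours a rise of dhar4 and the glutaredoxin, and leaving out a library does not test this. Scaling to library totals, on which the median gene was at 1.86 for the slope (0.08 with TMM) and at 0.73 between 25 and 32°C (0.02 with TMM), reversed 4 values, to 0.91 for the slope of cat3, 0.47 for its difference between 38 and 25°C, and 0.41 and 0.30 for cat1 and cat2 between 25 and 32°C. It also gave called slopes of 2.19 for cat1 and 2.44 for cat2 (4 of the 5 genes called), 2.33 for cat2 between 25 and 38°C, 1.20 for dhar4 between 32 and 38°C and an uncalled departure of 0.34 for dhar4. Differences between lines were then called at 32°C for cat3 (adjusted p = 0.000681) and the glutaredoxin (0.0201) and at 38°C for dhar4 (0.048), slopes per line in 28 of 40 cases against 6, and of the antioxidant genes 19 were higher and 0 lower. Higher genes were 99.6% of all slope calls, against 55.3% with TMM.

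The slope of cat1 was called without line L023 (0.69) and that of cat2 without line L012 (0.85) and after thinning to the smallest library (0.77), and the slope of cat3 with 38°C against 25°C only (-1.18). The difference of cat2 between 38 and 25°C was called with DESeq2 size factors (0.56), a minimum of 10 counts in 24 libraries (0.59), without the 3 or the 4 libraries closer to another line (0.61 each) and after thinning (0.66). Without the 3 libraries the step of cat2 from 25 to 32°C was called (-0.71), the departure of dhar4 was not (0.42), and adjusted p between lines were 0.0137 and 0.0134 for cat2 at 25 and 32°C and 0.0111 for dhar4 at 32°C (without the 4, 0.0137 for cat2 at 25°C and 0.0327 for dhar4). After thinning, adjusted p between lines were 0.213 for cat1 at 25°C, 0.0446 for cat3 and 0.0439 for the glutaredoxin at 32°C, and 0.0494 for the glutaredoxin at 38°C. The step of the glutaredoxin to 32°C (2.10) was then not called, since 3 groups at 25°C then held 0 counts of it, where this test can call nothing.

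Leaving out 1 library gave slopes of 0.24 to 0.55 for cat1 and 0.30 to 0.81 for cat2, differences between 38 and 25°C of 0.35 to 0.53 for cat1 and 0.36 to 0.64 for cat2, a first step of -0.70 to -0.27 and a departure of -0.996 to -0.57 for cat2, and a departure of 0.34 to 0.81 for the glutaredoxin. Adjusted p between lines ranged from 0.0239 to 0.155 for cat1 and 0.0168 to 0.481 for cat2 at 25°C, from 0.0179 to 0.720 for cat2, 0.0122 to 0.128 for cat3 and 0.0253 to 0.173 for dhar4 at 32°C, and from 0.00754 to 0.403 for cat1 and 0.00453 to 0.129 for cat2 at 38°C. With 1 replicate per group the share of cat1 differed by 8.996 and 11.5 points between 38 and 25°C (exact permutation p = 0.0859 and 0.0703).

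The labels do not say that a replicate number marks a shared batch, and the pairing was not settled by the data. Deviations of same-numbered libraries had an r above 0.1 in 14 of 22 pairs within a line between heat levels (-0.127 to 0.337), and between lines in 27 of 28 pairs at 25°C (median 0.249), 18 of 21 at 32°C (median 0.198) and 16 of 28 at 38°C (median 0.114), which misses the criterion that every pair is above 0.1. With a replicate block, cat2 was called between 25 and 38°C (0.58), adjusted p between lines were 0.0478 for cat2 at 25°C, 0.0133 for cat3 and 0.0343 for dhar4 at 32°C, and 1 of 40 slopes per line was called, that of dhar4 in S058. Over all genes, 31 slopes differed between lines, against 16 with the count filter, 59 without the 4 libraries and 4 after thinning. The glutaredoxin did not reach the count filter. Low counts limit the glutaredoxin at 25°C.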
